A study of Mus musculus with 11 samples.

Results

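The genes described here are 10 members of the extracellular protease system in transduced mouse bone marrow. They are the tissue inhibitors of metalloproteases Timp1, Timp2 and Timp3, the matrix metalloproteases Mmp12, Mmp13, Mmp14, Mmp19 and Mmp25, and the membrane-anchored proteases Adam8 and Adam17. Members were taken by name, and their mouse symbols were matched to the Ensembl identifiers of the raw gene counts. All 10 were found among the 51912 genes of the count table, and all 10 were among the 15703 genes that passed the filter on low counts.

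The study asked whether the order in which CSF3R and CEBPA mutations arise changes their effect on myeloid cells. RNA was sequenced from lineage-negative C57BL/6 bone marrow in 3 groups, 11 samples in all. CSF3R-only cells (n = 4) expressed CSF3R T618I, a mutant receptor for granulocyte colony-stimulating factor, from a constitutive retroviral vector and also carried an empty inducible vector. CSF3R-first cells (n = 3) expressed CSF3R T618I constitutively and CEBPA V314VW, a C-terminal mutant of the myeloid transcription factor, from the inducible vector. CEBPA-first cells (n = 4) expressed CEBPA V314VW constitutively and CSF3R T618I inducibly. Marrow of every group carried a tamoxifen-activated Cre at Rosa26, and was exposed to WEHI-conditioned medium, IL-3, IL-6 and SCF during spinoculation. Lineage-negative cells positive for both GFP and RFP were then sorted, before the culture. They were kept for 48 h in cytokine-free medium with 4-hydroxytamoxifen, which switches on the inducible vector. Both oncogenes were thus expressed from retroviral vectors and not from their own loci. Replicates carry letters A to D, and nothing in the labels says that they came from separate animals or cultures, so p-values measure the spread between these samples, which may be technical.

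Matrix metalloproteases are zinc enzymes that cut collagen, elastin and other matrix proteins, and most are made as inactive precursors. ADAMs are related membrane enzymes that release the outer part of cell surface proteins, a process called shedding. TIMPs bind the active site of these enzymes and block them. TIMP3 differs from the other TIMPs in that it is held in the extracellular matrix and inhibits ADAM17, the main enzyme that releases TNF. TIMP2 blocks MMP14 but also bridges it to pro-MMP2, so that MMP14 can activate MMP2. In marrow, neutrophils store metalloproteases in granules, macrophages secrete them, and megakaryocytes and platelets hold TIMPs.

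Promoter windows from RefSeq (GRCm38.p6, 250 bases before to 50 after each start) were found for 9 of the 10 members, and Mmp19 had none in that table. The 3 inhibitors are shown first, since their levels are set against each other below. Each stretch holds the 60 bases just before the more upstream of the RefSeq and GENCODE starts, 5′ to 3′ on the gene's strand, with CG in capitals.
Timp1 (chrX:20870106-20870165, plus strand): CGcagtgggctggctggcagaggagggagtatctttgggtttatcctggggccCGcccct
Timp2 (chr11:118355741-118355800, minus strand): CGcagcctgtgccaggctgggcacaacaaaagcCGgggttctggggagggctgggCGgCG
Timp3 (chr10:86300312-86300371, plus strand): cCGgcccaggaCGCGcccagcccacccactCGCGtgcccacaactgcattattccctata
The whole 300-base window held 24 CG in Timp3, 25 in Timp2 and 8 in Timp1, against a median of 7 over 32851 mouse windows. Those of Mmp12 and Mmp13 held 0 to 3.

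Motifs for 3 factor families were searched in the windows on both strands: TGANTCA (AP-1), TTGCNNAA (C/EBP) and TTCNNNGAA (STAT). They were present in 7.81%, 10.8% and 8.30% of all windows. Among the members' 10 windows, AP-1 letters occurred in 2, C/EBP letters in 2 and STAT letters in 0. The matches are shown in capitals, since they are the members' only matches to these letters. A match is a description of the sequence and not a bound site.
Mmp13, AP-1 letters (chr9:7272452-7272511, plus strand): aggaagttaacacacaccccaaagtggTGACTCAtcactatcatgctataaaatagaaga
Mmp12, AP-1 letters at an alternative start (chr9:7347303-7347362, plus strand): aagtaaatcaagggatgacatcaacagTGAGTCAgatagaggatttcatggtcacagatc
Mmp12, C/EBP letters (chr9:7344332-7344391, plus strand): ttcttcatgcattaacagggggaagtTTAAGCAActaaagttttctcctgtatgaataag
Adam8, C/EBP letters (chr7:139992748-139992807, minus strand): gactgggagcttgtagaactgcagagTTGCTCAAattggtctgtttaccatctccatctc
The first base of the match lay 35 bases upstream of the start in Mmp13, 44 and 39 in the 2 Mmp12 windows, and 219 in Adam8.

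Total counts per sample ranged from 47905747 to 72268346, and 3 counts, the limit that a count of 0 allows, correspond to 0.0383 to 0.0648 CPM. Levels are given as TMM-normalised CPM (counts scaled to the library's depth), and differences as edgeR log2 fold changes with their standard error (SE). The labelled cell type was checked against marker lists. Granulocyte-monocyte progenitor granule genes (5 measured) summed to 6300 to 6757 CPM in CEBPA-first cells, to 4777 to 5556 CPM with CSF3R first and to 2860 to 3499 CPM with CSF3R alone. B cell and T and NK cell lists summed to no more than 6.98 and 5.58 CPM in any sample. Of 12 stroma markers, Col3a1, Lum, Cxcl12 and Bgn were at 0 in every sample. The list summed to 7.67 to 12.2 CPM in the CSF3R-only and CSF3R-first samples and to 18.8 to 22.6 CPM in CEBPA-first. The higher sum was mostly Pdgfrb, which averaged 17.0 CPM in CEBPA-first and 5.61 CPM in CSF3R-only, and Col1a2 (3.43 and 0.167 CPM). Means of Sparc (0.0448 and 1.57 CPM), Col1a1 (0.387 and 0.841) and Lepr (0.0902 and 0.189) went the other way. Of the 5 tested, 2 rose and 2 fell at an adjusted p under 0.05, where 35.4% and 36.6% of all tested genes did. CSF3R-first replicate A stood apart from replicates B and C in neutrophil maturation markers, at 38192 CPM against 22621 and 26068. Calls and directions of the 10 members that changed without it are also given without it, as are the counts of called genes in the protease and substrate lists where they moved.

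Timp3 showed the largest change of the 10 genes in each of the 3 comparisons, except that without CSF3R-first replicate A, Mmp25 changed more in CSF3R-first against CSF3R-only (-2.40 against -1.99 for Timp3). Timp3 (ENSMUSG00000020044, chr10:86300372-86349506, plus strand, GRCm38) was at 123, 156, 161 and 163 CPM in CSF3R-only replicates A to D. It was at 21.2, 32.7 and 43.1 CPM in CSF3R-first replicates A to C. In CEBPA-first replicates A to D it was at 1.47, 1.70, 2.02 and 1.53 CPM. The 3 groups therefore did not overlap, and every CEBPA-first sample was far below every other sample. The CEBPA-first values rested on 86 to 120 reads, compared with 5701 to 10276 in CSF3R-only, so they were above the detection limit. Group means were 151 ± 18.6 (SD, n = 4), 32.3 ± 10.9 (n = 3) and 1.68 ± 0.244 CPM (n = 4). Timp3 fell by 6.49 on the log2 scale in CEBPA-first against CSF3R-only (SE 0.22, adjusted p = 2.8e-10), which is 90.1-fold lower. It fell by 4.28 in CEBPA-first against CSF3R-first (SE 0.22, adjusted p = 6.8e-08), 19.4-fold. It fell by 2.22 in CSF3R-first against CSF3R-only (SE 0.19, adjusted p = 6.8e-06), 4.65-fold. Over all alternatives the log2 fold change stayed between -6.58 and -6.36, between -4.50 and -4.02, and between -2.46 and -1.99. In RNA from whole samples, fewer cells of a type and less RNA per cell cannot be told apart.

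Timp3 lies within the gene for the synaptic protein Syn3 on the opposite strand, and 1733 of its exon bases (21.3%) are also Syn3 exon. By sequence, 36.7% of the 4722 bases of its longest transcript matched Syn3 transcripts at high identity. Strand use in the counting was not given in the sources used here, so reads in the shared part cannot be told apart. Syn3 itself averaged 1.24 CPM in the CSF3R-only samples and 0.555 CPM in the CSF3R-first samples, far below Timp3. It averaged 0.433 CPM in the CEBPA-first samples. Syn3 fell in both groups with CEBPA V314VW against CSF3R-only, by 1.52 (SE 0.22, adjusted p = 4.1e-05) in CEBPA-first and by 1.15 (SE 0.24, adjusted p = 0.0026) in CSF3R-first. Its difference between CEBPA-first and CSF3R-first was -0.37 (SE 0.25, adjusted p = 0.24). The same arrangement holds for Timp1 within Syn1, where no exon base is shared, and for Timp4 within Syn2. Syn1 averaged 3.15, 1.44 and 0.321 CPM in the order CSF3R-only, then CSF3R-first, then CEBPA-first, and fell by 3.33 in CEBPA-first against CSF3R-only (SE 0.27, adjusted p = 2.5e-07).

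Timp2, the most abundant inhibitor per length in each group, fell in the same order. Timp2 (ENSMUSG00000017466, chr11:118301069-118355740, minus strand) was at 258, 218, 199 and 231 CPM in CSF3R-only. It was at 106, 57.9 and 69.8 CPM in CSF3R-first and at 14.8, 10.7, 14.8 and 8.06 CPM in CEBPA-first. No sample of 1 group reached the range of another. The log2 fold change was -4.23 (SE 0.23, adjusted p = 6.8e-09) for CEBPA-first against CSF3R-only. It was -2.69 (SE 0.22, adjusted p = 2e-06) against CSF3R-first, and -1.54 (SE 0.22, adjusted p = 0.00026) for CSF3R-first against CSF3R-only.

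Timp1 (ENSMUSG00000001131, chrX:20870166-20874735, plus strand), a secreted inhibitor that also acts as a growth factor, was low throughout. It ranged from 2.31 to 3.00 CPM in CSF3R-only and from 0.230 to 0.902 CPM in CEBPA-first. The 3 CSF3R-first samples spread over both ranges, at 3.35, 0.664 and 1.83 CPM. Timp1 fell by 2.31 in CEBPA-first against CSF3R-only (SE 0.47, adjusted p = 0.00066) and by 1.87 against CSF3R-first (SE 0.50, adjusted p = 0.0085). This second call was lost without CSF3R-first replicate A (log2 fold change -1.25, adjusted p = 0.054). The difference between CSF3R-first and CSF3R-only was -0.44 (SE 0.47, adjusted p = 0.48), and -1.06 (adjusted p = 0.076) without replicate A. Timp4 had at most 1 count in any sample and was not tested.

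The makeup of the inhibitors is given as a description, without a test. As a share of the summed TIMP level per exon length, Timp3 made up 23.4% ± 3.74 (SD, n = 4) in the CSF3R-only samples and 16.4% ± 7.48 (n = 3) in the CSF3R-first samples. It made up 5.63% ± 1.66 (n = 4) in the CEBPA-first samples. In the same group order, Timp2 made up 72.9% ± 4.18, 75.9% ± 5.04 and 80.0% ± 4.04, and the ranges of all 3 groups overlapped. Timp1 made up 3.77% ± 0.646, 7.74% ± 3.74 and 14.4% ± 5.34. Its CSF3R-first range, 3.81% to 11.2%, overlapped with both others, while CSF3R-only (at most 4.35%) and CEBPA-first (at least 9.43%) were apart. For Timp3, CSF3R-only (18.0% to 26.7%) and CSF3R-first (7.76% to 20.9%) overlapped. The Timp3 share in each CEBPA-first sample, at most 7.48%, was below the lowest of the other samples, 7.76% in CSF3R-first replicate A.

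**Figure D1:**
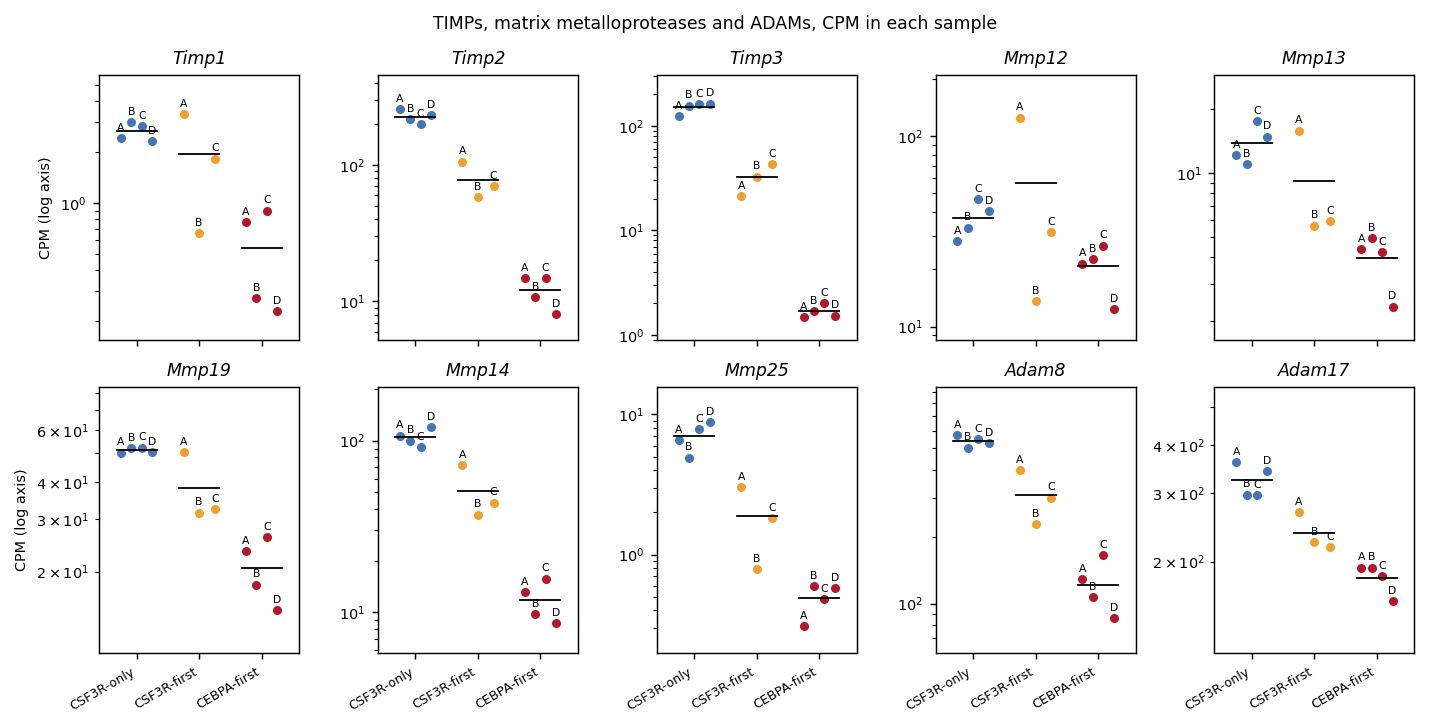
CPM of each gene in each sample, on log axes with a separate scale per gene. Each point is 1 sample with its replicate letter, and bars are group means. The CEBPA-first samples sit below all others for each gene but Timp1 and Mmp12, and Mmp12 in CSF3R-first runs from 13.6 to 125 CPM.

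The membrane-type enzymes Mmp14 and Mmp25 fell in all 3 comparisons. Mmp14, the collagenase that activates pro-MMP2 at the cell surface (ENSMUSG00000000957, chr14:54431612-54445364, plus strand), was at 107, 100, 91.6 and 120 CPM in CSF3R-only. It was at 72.2, 37.1 and 43.5 CPM in CSF3R-first, and at 13.1, 9.72, 15.7 and 8.64 CPM in CEBPA-first. The groups did not overlap. Log2 fold changes were -3.16 (SE 0.22, adjusted p = 7.6e-08) for CEBPA-first against CSF3R-only, -2.12 (SE 0.23, adjusted p = 1.6e-05) against CSF3R-first, and -1.04 (SE 0.23, adjusted p = 0.003) for CSF3R-first against CSF3R-only. Mmp25, a lipid-anchored enzyme of neutrophils also called leukolysin (ENSMUSG00000023903, chr17:23628311-23645277, minus strand), was at 6.57, 4.93, 7.86 and 8.84 CPM in CSF3R-only. It was at 3.04, 0.785 and 1.83 CPM in CSF3R-first and between 0.308 and 0.597 CPM in CEBPA-first. All 3 groups were again apart. Mmp25 had log2 fold changes of -3.83 (SE 0.36, adjusted p = 8.3e-07), -1.93 (SE 0.38, adjusted p = 0.0015) and -1.90 (SE 0.35, adjusted p = 0.0012) in the same 3 comparisons.

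The secreted enzymes changed less, and CSF3R-first replicate A bore on their calls. Mmp12, the macrophage elastase (ENSMUSG00000049723, chr9:7344381-7369499, plus strand), was at 28.1, 33.1, 46.5 and 40.4 CPM in CSF3R-only. It was at 125, 13.6 and 31.4 CPM in CSF3R-first, and at 21.4, 22.5, 26.6 and 12.4 CPM in CEBPA-first. Replicate A of CSF3R-first held the highest value of all samples and replicate B one of the 2 lowest. Mmp12 passed the test in CEBPA-first against CSF3R-first (log2 fold change -1.45, SE 0.53, adjusted p = 0.037), but not without CSF3R-first replicate A (-0.13, adjusted p = 0.78). Its call was also lost without CEBPA-first replicate A (adjusted p = 0.066), B (0.069) or D (0.087). The difference between CEBPA-first and CSF3R-only was -0.84 (SE 0.49, adjusted p = 0.14), although their samples did not overlap. That between CSF3R-first and CSF3R-only was 0.61 (SE 0.52, adjusted p = 0.37), and -0.71 (adjusted p = 0.085) without replicate A.

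Mmp13, a collagenase (ENSMUSG00000050578, chr9:7272514-7283331, plus strand), ranged from 11 to 17.5 CPM in CSF3R-only and from 2.35 to 4.93 CPM in CEBPA-first. In CSF3R-first it was at 15.8, 5.65 and 5.91 CPM, so that replicate A lay within the CSF3R-only range and replicates B and C just above CEBPA-first. Mmp13 fell by 1.81 (SE 0.32, adjusted p = 0.00022) in CEBPA-first against CSF3R-only and by 1.20 (SE 0.34, adjusted p = 0.011) against CSF3R-first. Without replicate A the latter was -0.55 (adjusted p = 0.093). The difference between CSF3R-first and CSF3R-only was -0.60 (SE 0.34, adjusted p = 0.17), and Mmp13 fell by 1.26 without replicate A (adjusted p = 0.0011).

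Mmp19, which cuts basement membrane proteins (ENSMUSG00000025355, chr10:128790910-128800824, plus strand), was the steadiest gene within CSF3R-only, at 50.3 to 52.3 CPM. It ranged from 31.6 to 50.6 CPM in CSF3R-first and from 14.8 to 26.1 CPM in CEBPA-first. Mmp19 fell by 1.32 (SE 0.17, adjusted p = 1.6e-05) in CEBPA-first against CSF3R-only and by 0.89 (SE 0.19, adjusted p = 0.002) against CSF3R-first. The difference between CSF3R-first and CSF3R-only was -0.43 (SE 0.19, adjusted p = 0.082), and -0.68 (adjusted p = 0.0043) without CSF3R-first replicate A. Mmp19 shares 789 exon bases (22.3%) with Tmem198b on the opposite strand, so part of its reads may be shared. Tmem198b averaged 7.54, 5.80 and 4.81 CPM in the order CSF3R-only, then CSF3R-first, then CEBPA-first. By sequence, 27.9% of the longest Mmp19 transcript matched Tmem198b or the antisense gene Gm47093. The other members shared at most 4.35% of their exon bases with another gene, Timp3 excepted. Of their longest transcripts, 6.96% of Adam17 matched its neighbour Iah1 and 3.43% of Mmp14 matched a gene that does not overlap it, and the remaining 6 had no match. How reads in such stretches were assigned is not given in the sources used here.

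Both ADAMs fell in each comparison, with larger fold changes for Adam8 than for Adam17. Adam8, a sheddase of myeloid cells (ENSMUSG00000025473, chr7:139978932-139992562, minus strand), was at 573, 504, 549 and 527 CPM in CSF3R-only. The 3 CSF3R-first samples had 398, 229 and 300 CPM, and the CEBPA-first samples had 129, 107, 165 and 86.1 CPM. The groups did not overlap. Adam8 fell by 2.15 (SE 0.19, adjusted p = 5.4e-07) in CEBPA-first against CSF3R-only, by 1.34 (SE 0.20, adjusted p = 2e-04) against CSF3R-first, and by 0.80 (SE 0.20, adjusted p = 0.0072) in CSF3R-first against CSF3R-only. Adam17, the TNF-converting enzyme (ENSMUSG00000052593, chr12:21323509-21373632, minus strand), was at 361, 298, 297 and 342 CPM in the CSF3R-only samples and at 268, 225 and 218 CPM in the CSF3R-first samples. The CEBPA-first samples had 193, 193, 184 and 158 CPM. Its samples were also in 3 separate ranges, with smaller steps between them. Adam17 had log2 fold changes of -0.84 (SE 0.09, adjusted p = 3.9e-06), -0.38 (SE 0.10, adjusted p = 0.0076) and -0.45 (SE 0.10, adjusted p = 0.0038) in the same 3 comparisons.

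**Figure D2:**
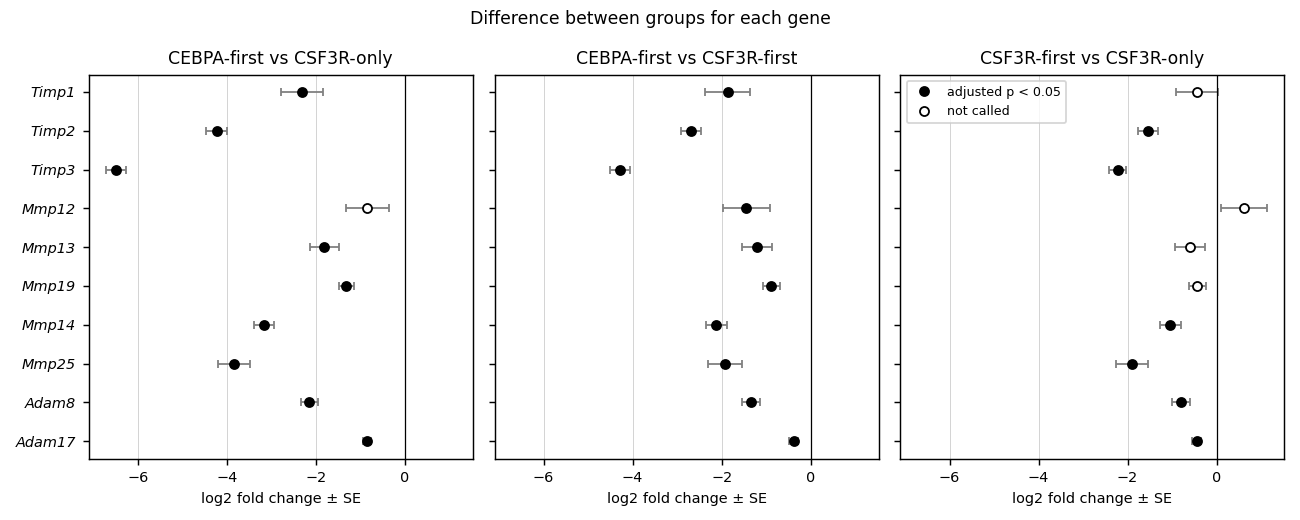
Log2 fold change with its SE for each gene in each of the 3 comparisons. Filled points have an edgeR adjusted p under 0.05 over all 15703 genes tested. Timp3 lies farthest left in each panel, at -6.49, -4.28 and -2.22, and Mmp12 has the widest error.

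In CEBPA-first against CSF3R-only, 9 of the 10 members were called lower at an adjusted p under 0.05, where 36.6% of all tested genes were called lower and 35.4% higher. With a log2 fold change of at least 1 in size as well, 8 members were called lower, against 19.0% of all genes lower and 8.07% higher. In CEBPA-first against CSF3R-first, 10 members were called lower against 24.3% of all genes (24.0% higher), and 8 with the fold threshold against 10.3% (2.57% higher). In CSF3R-first against CSF3R-only, 6 members were called lower against 21.1% of all genes (21.6% higher), and 4 with the fold threshold against 4.53% (2.13% higher). These 4 were Timp2, Timp3, Mmp14 and Mmp25. Without CSF3R-first replicate A, 7 members were called lower at an adjusted p under 0.05 in CEBPA-first against CSF3R-first, where 19.1% of all genes were, and 8 in CSF3R-first against CSF3R-only, where 23.3% were. In that fit all 10, Mmp12 included, were called lower in CEBPA-first against CSF3R-only, where 36.9% were. With the fold threshold as well, leaving out replicate A lowered the count in CEBPA-first against CSF3R-first from 8 to 5 (Timp2, Timp3, Mmp14, Mmp25 and Adam8), against 8.47% of all genes lower and 2.21% higher. It raised the count in CSF3R-first against CSF3R-only from 4 to 6, with Mmp13 and Adam8 added, against 6.41% lower and 2.49% higher. The members' median log2 fold change was -2.23, -1.66 and -0.70 in these comparisons, and that of all tested genes was 0, 0 and -0.02. The groups did not overlap for 10, 8 and 6 members, against 68.7%, 52.2% and 42.1% of all tested genes. Each pair of comparisons shares a group of samples, so their results are not independent. The members were chosen with earlier results of these data known, so the shares of all genes are a background and not a test of the set.

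For 9 of 10 members, all but Mmp12, CSF3R-first had the middle of the 3 group means. This held for 76.1% of all tested genes. Without CSF3R-first replicate A it held for all 10 members and 74.6% of all tested genes. The distance from CSF3R-only, as a share of the log2 distance between CSF3R-only and CEBPA-first, was 0.351 for Timp3 in CSF3R-first. It was 0.437, 0.339 and 0.278 in replicates A, B and C, and 0.371 for Timp2. Both inhibitors were therefore nearer to CSF3R-only in CSF3R-first cells, on this scale. Timp1 was at 0.29, but at -0.141, 0.798 and 0.213 in replicates A, B and C. Mmp25 and Adam17, both at 0.544, were nearer to CEBPA-first, and the other members were nearer to CSF3R-only.

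Within CSF3R-first, Timp3 ordered the samples differently from the other members. Replicate A was the lowest of the 3 samples for Timp3 and the highest for each of the 9 other members, whereas 40.2% of all tested genes were highest in replicate A and 41.0% lowest. The spread was 2.03-fold for Timp3, 1.23-fold for Adam17 and 9.19-fold for Mmp12. Neutrophil maturation markers (18 genes) summed to 38192, 22621 and 26068 CPM in replicates A, B and C. Monocyte and macrophage markers (14 genes) summed to 2899, 1679 and 1823 CPM. Both lists were highest in replicate A, as were the 9 members. Megakaryocyte markers (7 genes) summed to 386, 448 and 621 CPM, lowest in replicate A, as Timp3 was. That order was not particular to megakaryocytes, since 6 other lists were also lowest in replicate A. Endothelium markers summed to 28.6, 34.6 and 50.9 CPM, erythroid to 371, 649 and 707, mast cell and basophil to 1329, 1530 and 1618, stem and progenitor to 465, 498 and 513, and stroma to 8.16, 11.3 and 12.2. T and NK cell markers were near 0 throughout, at 2.09, 2.92 and 2.83. Eosinophil markers were highest in replicate A, at 129, 56.8 and 78.1 CPM. The part that cell makeup plays in these differences was not tested.

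**Figure D3:**
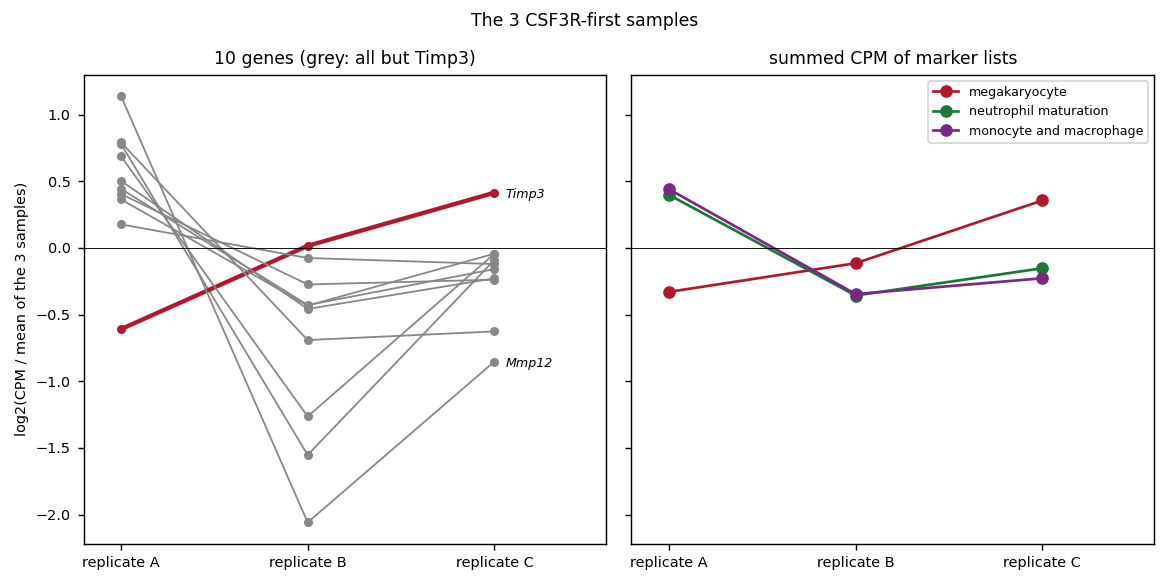
Left, log2 of each gene's CPM over its mean in the 3 CSF3R-first samples, with Timp3 in red and the 9 other genes in grey. Right, the same for the summed CPM of 3 marker lists. Timp3 and the megakaryocyte list are lowest in replicate A, where the other genes and the neutrophil and monocyte lists are highest.

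Levels of the marker lists were also compared between the groups. Megakaryocyte markers summed to 124 to 170 CPM in CEBPA-first samples, against 386 to 621 CPM with CSF3R first and 1100 to 1451 CPM with CSF3R alone. All 7, such as Pf4, Itga2b and Gp1bb, were detected in every group and fell in each comparison, with a median of -4.76 (log2) between CEBPA-first and CSF3R-only. In that comparison 17 of 18 neutrophil maturation markers and 12 of 14 monocyte and macrophage markers fell, while Chil3, Ly6c2 and Fcgr1 rose. In CSF3R-first against CSF3R-only, 16 of the 18 neutrophil markers fell and Chil3 rose, where 21.1% of all tested genes were called lower and 21.6% higher. In the order CSF3R-only, then CSF3R-first, then CEBPA-first, the neutrophil sums were 31882 to 39815, 22621 to 38192 and 11277 to 16353 CPM. Chil3, which is part of these sums, averaged 1167, 6957 and 5603 CPM. The monocyte sums were 3049 to 3876, 1679 to 2899 and 945 to 1328 CPM. Eosinophil markers were also lower with CEBPA V314VW, at 226 to 337, 56.8 to 129 and 28.9 to 35.3 CPM in that order, and 4 of 6 tested fell in CEBPA-first against CSF3R-only, where 36.6% of all tested genes were called lower and 35.4% higher. Endothelium markers summed to 78.1 to 107, 28.6 to 50.9 and 20.0 to 22.6 CPM. Of the 5 tested, 2 fell and 1 rose in the same comparison. The drop in the sum was mostly Vwf, with means of 80.0, 25.1 and 2.73 CPM in the 3 groups. Plvap also fell (2.22, 1.46 and 0.733 CPM). Egfl7 rose (7.45, 7.81 and 10.8 CPM). Kdr (3.24, 2.42 and 4.44 CPM) and Tek (1.99, 1.22 and 2.1 CPM) did not pass the test. Mast cell and basophil markers summed to 2132 to 3112, 1329 to 1618 and 1404 to 1833 CPM, and 3 of 8 fell and 2 rose. The shares of the endothelium and mast cell lists called lower were thus near that of all genes. Erythroid markers summed to 489 to 682, 371 to 707 and 472 to 585 CPM, so that the sums overlapped, but 6 of 8 fell and the transferrin receptor Tfrc rose. The haemoglobin gene Hbb-bs averaged 59.5, 44.2 and 1.84 CPM in the 3 groups, and Hba-a1 averaged 63.0, 42.9 and 2.17 CPM. Stem and progenitor markers summed to 529 to 761, 465 to 513 and 467 to 497 CPM, and 4 of 8 rose and 4 fell. Mmp8 and Mmp9 belong to the neutrophil list, and Csf1r to the monocyte list. The part of these cell types in the members' changes was not tested.

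The genes nearest to Timp3 in pattern were Vwf, Serpine2, Clu, Gp1bb and Tbxas1. Their Pearson r with Timp3 over the 11 samples was 0.999, 0.998, 0.997, 0.996 and 0.996, in log2 CPM among genes with a mean of at least 3. These correlations are descriptive, since the 11 points share 3 group means. Vwf, von Willebrand factor of megakaryocytes and endothelium, averaged 80.0, 25.1 and 2.73 CPM in the order CSF3R-only, then CSF3R-first, then CEBPA-first. Gp1bb, a subunit of the platelet receptor for that factor, averaged 38.8, 13.2 and 1.43 CPM. Serpine2, a serine protease inhibitor, averaged 177, 66.3 and 13.7 CPM. Clu, the chaperone clusterin, averaged 126, 29.6 and 3.14 CPM. Tbxas1, thromboxane synthase, averaged 78.7, 39.5 and 11.4 CPM. Vwf, Serpine2, Clu and Gp1bb were also lowest in replicate A among the CSF3R-first samples, and Tbxas1 was not. Ranking by Spearman correlation kept only Vwf among the 5, and Serpine2, Clu, Gp1bb and Tbxas1 dropped out. Its 5 genes were Itgb3, the platelet integrin subunit, then Agpat3, Ppp1r13b, Vwf and Rabgap1l. Among the members, r with Timp3 was highest for Timp2 (0.976) and Mmp14 (0.965) and lowest for Mmp12 (0.425).

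**Figure D4:**
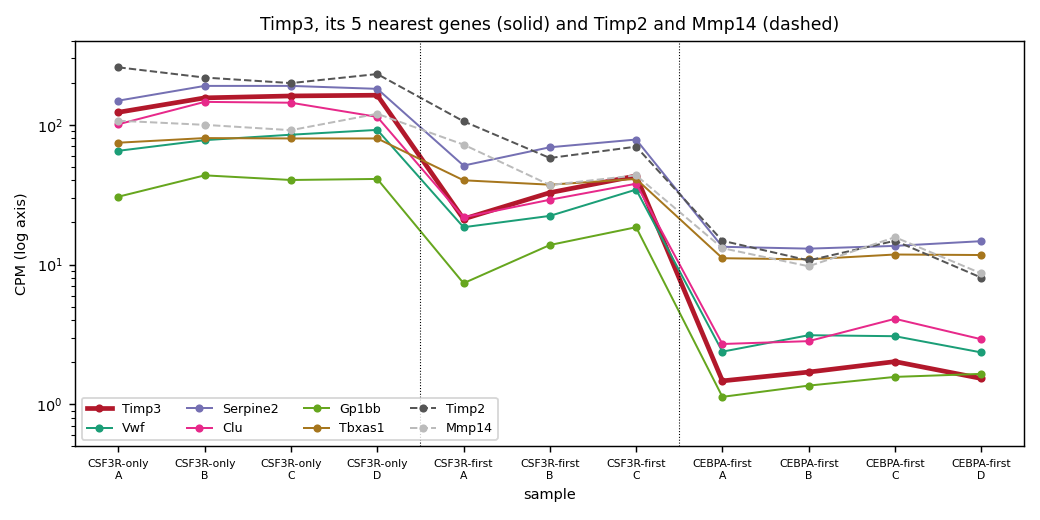
CPM in each of the 11 samples on a log axis, for Timp3, the 5 genes with the highest Pearson r with it (solid lines) and Timp2 and Mmp14 (dashed). Dotted lines separate the groups. Timp3 drops from 123 to 163 CPM in CSF3R-only to 1.47 to 2.02 CPM in CEBPA-first.

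Levels were compared between genes as CPM per kilobase of exon. In CSF3R-only the order was Adam8 (116 CPM per kb), Timp2 (58.2), Adam17 (45.3), Timp3 (18.5), Mmp14 (17.6), Mmp19 (14.5), Mmp13 (5.17), Mmp12 (5.11), Timp1 (2.98) and Mmp25 (1.33). Timp3 and Mmp14 overlapped in their samples, as did Mmp13 and Mmp12, and the other neighbours did not. In CEBPA-first the order was Adam8 (26.2), Adam17 (25.4), Mmp19 (5.83), Timp2 (3.11), Mmp12 (2.86), Mmp14 (1.98), Mmp13 (1.49), Timp1 (0.612), Timp3 (0.206) and Mmp25 (0.0924). Timp3 thus stood 4th in CSF3R-only and 9th in CEBPA-first. Its samples did not overlap with those of Timp1 or Mmp25 there, whereas Adam8 overlapped with Adam17, and the 5 genes from Timp2 to Timp1 overlapped each with the next. In CSF3R-first, Adam8 (66.6), Adam17 (33.1) and Timp2 (20.0) led and were apart from each other and from Mmp19 (10.8). From Mmp19 down, each neighbour overlapped with the next through Mmp14 (8.55), Mmp12 (7.81), Timp3 (3.97), Mmp13 (3.42) and Timp1 (2.19), and Mmp25 (0.356) was apart. With the longest transcript as the length, Timp3 stood 5th, 7th and 9th in the 3 groups, and in CEBPA-first its range (0.312 to 0.427) then lay within that of Timp1 (0.260 to 1.02). Other neighbours also changed places on that length. In CSF3R-only, Adam17 (66.4 to 80.7) stood above Timp2 (53.6 to 69.5) with overlap. In CEBPA-first, Adam17 (40.7) stood above Adam8 (33.2), and Timp2 (3.26) stood 6th, below Mmp12 (4.63) and Mmp14 (3.64).

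Inhibitor and protease were also set against each other within each sample, which does not depend on library scaling. The 3 pairs were chosen after the values were seen and are given without a test. The ratio of Timp3 to Adam17 per exon length was 0.300, 0.459, 0.477 and 0.418 in the CSF3R-only samples. It was 0.0695, 0.128 and 0.173 in CSF3R-first samples and 0.00672, 0.00777, 0.00963 and 0.00854 in CEBPA-first samples. The 3 groups did not overlap. The ratio of Timp2 to Mmp14 was 3.67, 3.33, 3.32 and 2.94 in the CSF3R-only samples. It was 2.24, 2.38 and 2.46 in CSF3R-first samples and 1.73, 1.68, 1.45 and 1.43 in CEBPA-first samples. It moved far less than that of Timp3 to Adam17, but the groups were again apart, and replicate A of CSF3R-first lay close to its group. The size of this ratio rests on the length used. Per longest transcript its means were 1.89 ± 0.170 (SD, n = 4), 1.35 ± 0.0628 (n = 3) and 0.897 ± 0.0901 (n = 4), still without overlap, with Timp2 then below Mmp14 in every CEBPA-first sample (0.814 to 0.989). The ratio of Timp1 to Mmp9, the gelatinase of neutrophil granules, went the other way, with means of 0.00863 ± 0.00202 (SD, n = 4), 0.0232 ± 0.00889 (n = 3) and 0.0813 ± 0.0468 (n = 4). These are ratios of RNA, and protein was not measured.

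**Figure D5:**
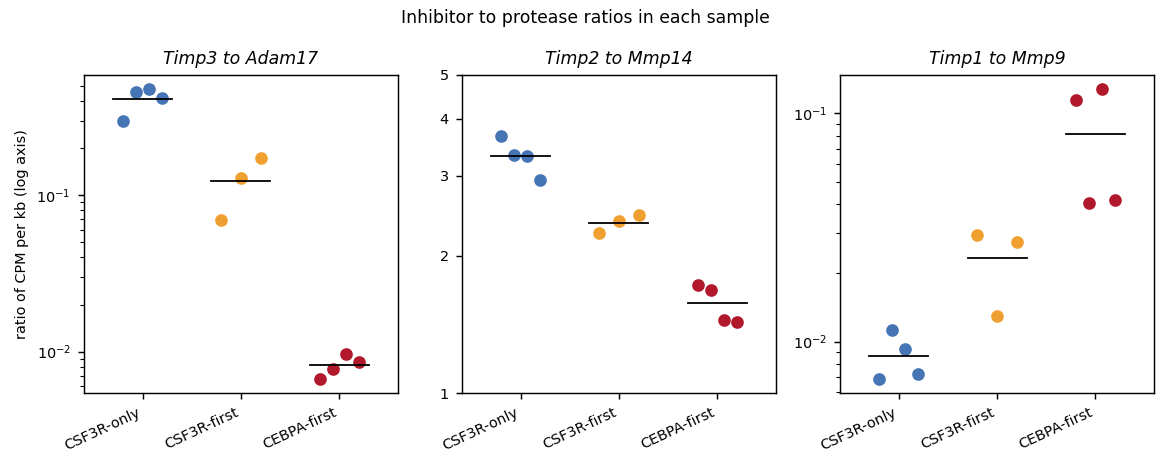
Ratio of CPM per kb of inhibitor to protease in each sample, on log axes with a separate scale per pair. Points are samples and bars are group means. Timp3 to Adam17 is 0.300 to 0.477 in CSF3R-only and 0.00672 to 0.00963 in CEBPA-first.

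Among the other matrix metalloproteases, 6 of 18 genes passed the filter on low counts. In CEBPA-first against CSF3R-only, 4 of these 6 fell (Mmp2, Mmp8, Mmp9 and Mmp27), where 36.6% of all tested genes were called lower, while Mmp17 and Mmp28 were at 0.203 to 0.254 CPM in both group means and did not pass the test. Mmp9 averaged 1247, 308 and 25.9 CPM in the order CSF3R-only, then CSF3R-first, then CEBPA-first. Its log2 fold change was -5.59 (SE 0.23, adjusted p = 9.7e-10) in CEBPA-first against CSF3R-only. Mmp9 also fell in CEBPA-first against CSF3R-first (-3.57, SE 0.22, adjusted p = 2e-07) and in CSF3R-first against CSF3R-only (-2.02, SE 0.22, adjusted p = 3.8e-05), where it was the only one of the 6 called and 21.1% of all tested genes were called lower. That count of 1 is no more than the background share. Without CSF3R-first replicate A, Mmp2 (-0.48, adjusted p = 0.027) and Mmp8 (-0.50, adjusted p = 0.0062) were called there as well, against 23.3% of all genes. Mmp2, the gelatinase activated by Mmp14, averaged 5.55, 4.58 and 2.33 CPM and fell by 1.26 (SE 0.16, adjusted p = 1.3e-05) in CEBPA-first against CSF3R-only. Mmp27 averaged 8.35, 8.07 and 5.01 CPM and fell by 0.74 (SE 0.15, adjusted p = 0.00055). Mmp8, the neutrophil collagenase, averaged 7742, 6517 and 4824 CPM, a smaller change than that of Mmp9, with a log2 fold change of -0.68 (SE 0.16, adjusted p = 0.0015).

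All 5 other catalytic ADAMs that were tested (of 8 listed) fell in CEBPA-first against CSF3R-only, against the same 36.6% of all tested genes. In the same order of groups, Adam19 averaged 35.0, 16.3 and 2.18 CPM, with a log2 fold change of -4.00 (SE 0.13, adjusted p = 1.7e-10). Adam15 fell by 1.37 (SE 0.10, adjusted p = 6.8e-08) and Adam9 by 1.14 (SE 0.12, adjusted p = 1.6e-06). Adam10, the close relative of Adam17, changed least of these named genes, with means of 376, 326 and 295 CPM (-0.35, SE 0.07, adjusted p = 4e-04). It was named after its values were seen. Of 8 ADAMTS genes tested (19 listed), Adamts1, Adamts5 and Adamts10 fell, Adamts7 and Adamts17 rose, and Adamts3, Adamts6 and Adamts20 did not pass the test. Among all tested genes 36.6% were called lower and 35.4% higher in this comparison, so the 3 that fell are near the background share and the 2 that rose below it. Adamts10 fell by 1.51 (SE 0.12, adjusted p = 1.5e-07), from 35.7 to 12.5 CPM. Adamts17, also named after its values were seen, rose by 4.20 (SE 0.50, adjusted p = 6.5e-06) but reached only 0.480 to 1.52 CPM in CEBPA-first.

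Among activators and regulators of metalloproteases, 13 of 15 tested genes (18 listed) fell in CEBPA-first against CSF3R-only, 12 in CEBPA-first against CSF3R-first and 6 in CSF3R-first against CSF3R-only. Of all tested genes, 36.6%, 24.3% and 21.1% were called lower in these comparisons. Without CSF3R-first replicate A the latter counts were 11 and 8. Plau and Bsg did not pass the test in any of these. The median log2 fold changes were -1.25, -0.70 and -0.28. Serpinb2, an inhibitor of urokinase, averaged 126, 38.6 and 4.80 CPM and fell by 4.71 (SE 0.32, adjusted p = 6e-08) in the first of these. Lrp1, the endocytic receptor that takes up TIMP3 and several metalloproteases, averaged 501, 265 and 74.9 CPM and fell by 2.74 (SE 0.19, adjusted p = 7.5e-08). Tspan33, a tetraspanin partner of Adam10, averaged 11.2, 9.66 and 1.80 CPM and fell by 2.65 (SE 0.35, adjusted p = 1.6e-05). All 10 listed ADAM17 substrates of myeloid cells were tested, and 10, 9 and 7 fell in the 3 comparisons, with medians of -1.32, -1.03 and -0.50. The shares of all genes called lower are those just given, and without CSF3R-first replicate A the latter counts were 7 and 9, where 19.1% and 23.3% of all genes were called lower. Tnf averaged 47.8, 22.0 and 5.41 CPM and fell by 3.14 (SE 0.18, adjusted p = 1.3e-08) in CEBPA-first against CSF3R-only. Csf1r, the macrophage growth factor receptor, fell by 2.34 (SE 0.20, adjusted p = 3.8e-07), and Tnfrsf1b, the second TNF receptor, fell by 2.28 (SE 0.16, adjusted p = 6.9e-08).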

How the data were processed

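Reads were trimmed (Trimmomatic) and aligned (STAR) by the authors, whose processing notes also name mm10 and DESeq2. They deposited raw whole-number counts per gene for 11 samples. The counting tool, annotation and strand setting are not given in the sources used here. Counts were filtered with filterByExpr and tested in 1 fit of the 3 groups with edgeR 4.0.16 (TMM, quasi-likelihood test, Benjamini-Hochberg over 15703 genes, R 4.3.3). CPM are counts per TMM-scaled library. Each SE is the log2 fold change over the square root of F. Log2 CPM used a prior count of 2. Exon lengths and overlaps came from GENCODE on GRCm38, and near-identical stretches (at least 100 bases at 97% identity) from BLAST 2.17.0. Self-tests ran on simulated counts.

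The members and lists were chosen with earlier results of these data known. Named besides the members were up to 3 genes per list with the largest change in CEBPA-first against CSF3R-only (mean log2 CPM at least 0, adjusted p under 0.05), overlapping genes and the 5 nearest to Timp3. Alternatives were DESeq2 1.42.0, limma-voom 3.58.1, other scalings and filters, a replicate block, only the compared groups, glmTreat, and each sample left out. A limit of 3 counts covers counting error only.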

Additional observations from a re-analysis of the deposited data

How the results depend on the processing

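Of the members' log2 fold changes, 475 values under an alternative kept their direction and side of the threshold, 9 lost the call, 5 gained it and 1 turned. The one that turned was Mmp12 in CSF3R-first against CSF3R-only, which ranged from -0.71 to 1.07 with 1 sample left out and was negative without CSF3R-first replicate A. Testing against a log2 fold change of 1 (glmTreat) left 7 members called in CEBPA-first against CSF3R-only, 3 in CEBPA-first against CSF3R-first and 1 in CSF3R-first against CSF3R-only, where 12.2%, 4.13% and 0.516% of all tested genes were called lower. With 1 sample of the compared groups left out, 9, 7 to 10 and 6 to 8 members were called in these comparisons, and the counts of 7 and 8 came without CSF3R-first replicate A. With the fold threshold as well, an alternative chosen after seeing the data, as were the list counts without that sample, the counts were 8, 5 to 9 and 3 to 6, and those of 5 and 6 came without CSF3R-first replicate A. With only the compared groups in the fit, Mmp12 was called in CEBPA-first against CSF3R-only (-0.85, adjusted p = 0.0024) and not in CEBPA-first against CSF3R-first (-1.49, adjusted p = 0.076). Limma-voom also did not call the latter (-0.93, adjusted p = 0.18), and called Mmp19 in CSF3R-first against CSF3R-only (-0.47, adjusted p = 0.045). Scaling by library totals alone moved the median of all genes by 0.13, 0.048 and 0.085. The causes were not tested. At this depth Timp4, with at most 1 count in a sample, was not tested.

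Deviations from the group means correlated at -0.107 to 0.362 between samples of the same letter (10 pairs) and at -0.341 to 0.384 between those of different letters (30 pairs). They were above 0 in 9 of the 10 same-letter pairs and in 8 of the 30 others, and above 0.1 in 7 and in 5. Samples of a letter therefore tended to deviate together. The labels tie a letter to no shared animal, batch or day, and not every same-letter pair was above 0.1, so the block was kept as an alternative and shared origin was not settled. With a replicate block, 9, 9 and 7 members were called, and calls over all genes went from 11314, 7578 and 6703 to 11501, 7705 and 7216. Mmp12 lost its call in CEBPA-first against CSF3R-first (-1.04, adjusted p = 0.13) and Mmp19 gained 1 in CSF3R-first against CSF3R-only (-0.53, adjusted p = 0.019).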
